A study of Mus musculus with 8 samples.

Results

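The genes described here encode the replicative DNA helicase and the proteins that load it onto origins of replication: Mcm2, Mcm3, Mcm4, Mcm5, Mcm6 and Mcm7, the loaders Cdc6 and Cdt1, and Mcm10. They were taken as every probe set whose single gene symbol in the platform annotation is one of these names, which gave 22 probe sets for 9 genes among 22626 tested probe sets and 12393 named genes. All 22 were tested, since no filter on low values was applied. The samples were whole skin of newborn FVB mice of 4 genotypes. These combine loss or presence of the retinoblastoma protein pRb (gene Rb1) with loss or presence of the related protein p107 (gene Rbl1). In the pRb-/-;p107-/- group, called the double mutant below, both proteins are lacking by the label. The pRb-/-;p107+/+ group, called the single pRb mutant, lacks pRb alone by the label, and the pRb+/+;p107-/- group, called the single p107 mutant, lacks p107 alone by the label. The last group, pRb+/+, serves as the control, and its labels name no p107 genotype, so wild-type p107 is assumed. Each group had 2 Affymetrix arrays, and each array held RNA pooled from 3 animals of a genotype. The series title speaks of epidermis, while the arrays measured whole skin. The sources used here do not say which cells carry the deletion or what drives it.

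The deposited value is a z-score. Each probe set has a mean of 0 and an SD of 1 over the 8 arrays, so a difference of 1 is 1 SD of that probe set and neither a level nor a fold change can be read. Differences below are in these units with the standard error (SE) of the linear model, p-values are adjusted over all 22626 probe sets, and a gene is said to have risen or fallen where the adjusted p was below 0.05. Because whole skin was measured, more cells of a type and more RNA per cell cannot be told apart. With z-scores the presence of the defining markers of skin could not be checked either. One library stood apart in spike-in probes: the array's 18 hybridization controls, added to every sample, averaged 2.05 on the second control array and from -0.80 to 0.37 on the other 7. Without that array the median difference of the 22 probe sets between double mutant and control was 2.26, against 2.08 with it, and neither Mcm5 nor Cdc6, the members past the threshold below, passed (limma, adjusted p = 0.0563 and 0.135).

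The 6 proteins Mcm2 to Mcm7 form a ring that encircles DNA and becomes the motor of the replication fork. In the G1 phase of the cell cycle Cdc6 and Cdt1 help the origin recognition complex to place this ring on DNA as an inactive precursor, a step called licensing, and Mcm10 acts later, when the ring is activated. These genes are known targets of the E2F transcription factors, which pRb and p107 bind and restrain. In skin, dividing cells lie in the basal layer of the epidermis and in the hair matrix.

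E2F factors are known for binding DNA words of the kind TTTCCCGC, TTTCGCGC, TTTGCCGC and TTTGGCGC. Windows from 250 bases before to 50 bases after a start, as the RefSeq-derived promoter sequences give it, were searched for these 4 words on both strands, in build GRCm38.p6. A window was at hand for 8 of the 9 genes, all but Mcm4. These genes had 9 windows, since Mcm7 had a further one. A word was held by 6 of the 9 windows, in 6 of the 8 genes. Among all 32851 windows 2.26% held one, and among the 12566 windows of genes named on the array 3.38% did. The stretches that hold the words are shown for the 6 genes that had one. Each is written 5′ to 3′ on the strand of its gene with the words in capitals, and positions count from the start its window was drawn from. For Mcm3, Mcm6 and Cdt1 that is the outer end of the annotated gene, but for Mcm5, Mcm7 and Cdc6 it lies 41, 228 and 442 bases inside it.

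Mcm3, chr1:20820265-20820294, minus strand, bases 19 to 48 after the start, inside the gene:
gGCGGGAAAacttgggaagtTTTGGCGCca
Mcm5, chr8:75109347-75109376, plus strand, bases -162 to -133, before the gene:
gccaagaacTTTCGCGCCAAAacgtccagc
Mcm6, chr1:128359795-128359824, minus strand, bases -119 to -90, before the gene:
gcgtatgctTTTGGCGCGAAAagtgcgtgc
Mcm6, chr1:128359734-128359763, minus strand, bases -58 to -29, before the gene:
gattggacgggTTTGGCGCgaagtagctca
Mcm7, chr5:138172030-138172059, minus strand, bases -176 to -147, inside the annotated spans of Mcm7 and of its neighbour Ap4m1:
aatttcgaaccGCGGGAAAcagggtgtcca
Mcm7, chr5:138171849-138171878, minus strand, bases 6 to 35 after the start, inside the gene:
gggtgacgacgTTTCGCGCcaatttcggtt
Cdc6, chr11:98908002-98908031, plus strand, bases -149 to -120, inside the annotated span of the gene:
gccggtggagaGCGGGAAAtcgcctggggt
Cdt1, chr8:122568035-122568064, plus strand, bases 21 to 50 after the start, inside the gene:
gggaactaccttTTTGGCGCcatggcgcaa

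In the upstream stretch of Mcm5 and the first of Mcm6 a TTTGGCGC and a TTTCGCGC on opposite strands overlap, so their capitals run together. The Mcm2 and Mcm10 windows held none of the words, nor did the other window of Mcm7. The CCAAT word, bound by factor NF-Y, was found in 7 of the 9 windows, in 6 of the 8 genes, and in 37.4% of all windows. TTTGAA is the core of the element that cell cycle repressor complexes bind at late cell cycle genes. It was found for Mcm2 alone, in 1 of the 9 windows, and in 17.9% of all windows. A word in a window is a description of the sequence and not a measured binding site.

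Licensing genes stood highest in the double mutant and lowest in the control. Over the 22 probe sets the median z-score of an array was 1.38 and 1.05 in the double mutant, -0.20 and -0.27 in the single pRb mutant, -0.14 and -0.23 in the single p107 mutant, and -0.84 and -0.90 in the control. Both arrays of the double mutant thus lay above the other 6, and both control arrays below them. Over all tested probe sets the array medians ran only from -0.25 to 0.22. In 14 of the 22 probe sets both double mutant arrays were above all others, which held for 6.95% of all tested probe sets, and 8 of the 9 genes had at least 1 such probe set. In 8 of the 22 both control arrays were below all others, against 10.3% of all tested.

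**Figure D1:**
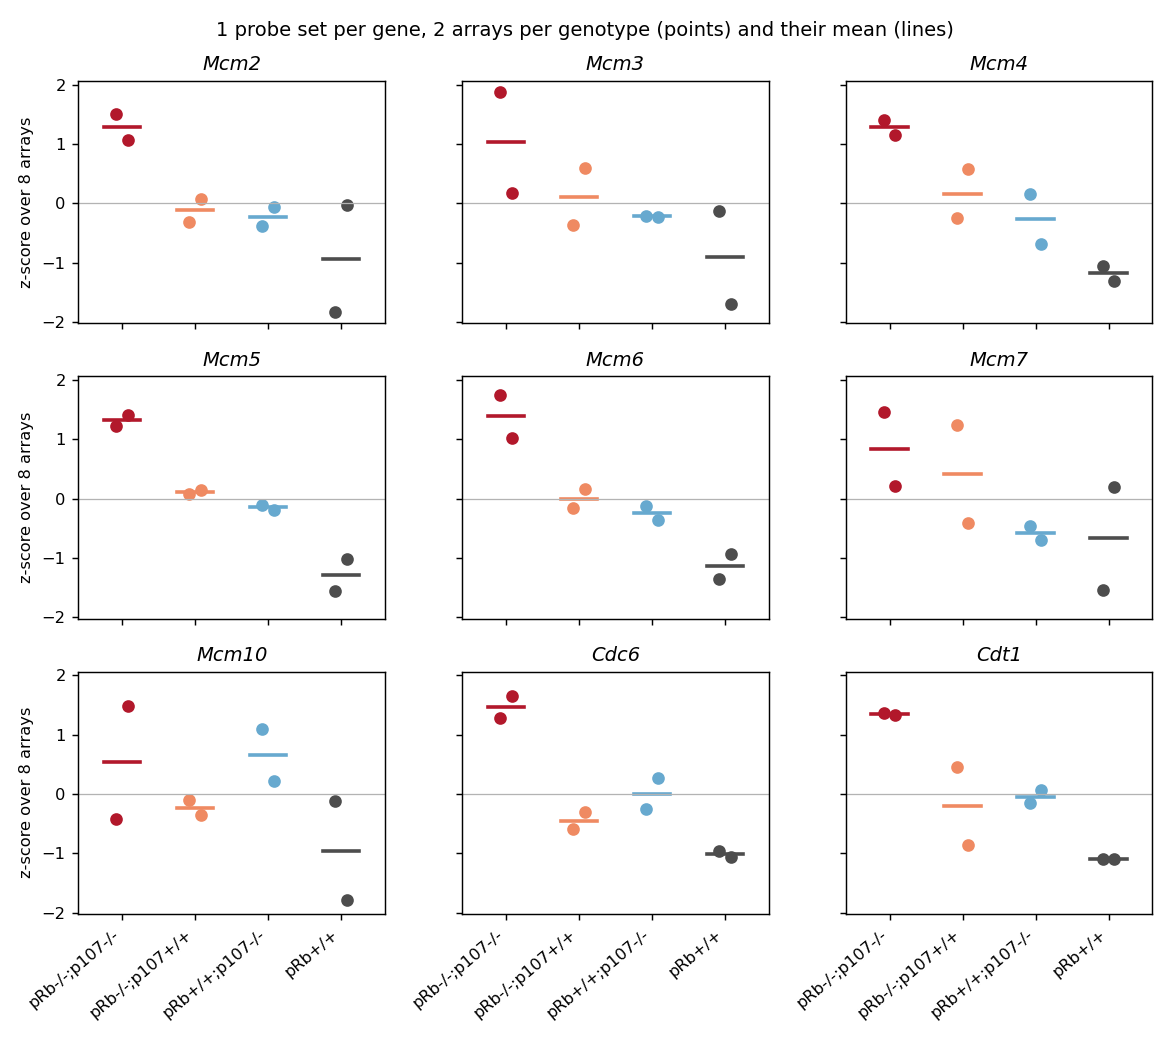
Z-score (vertical axis, mean 0 and SD 1 over 8 arrays) of the probe set that stands for each of the 9 genes, with a point per array and a line at the mean of each genotype. In Mcm4, Mcm5, Mcm6, Cdc6 and Cdt1 both double mutant arrays are the highest and both control arrays the lowest, while Mcm3, Mcm7 and Mcm10 show a wide gap between arrays of a genotype.

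Among the ring subunits Mcm5, which with Mcm2 forms the gate through which DNA enters the ring in yeast, gave the clearest separation. Its only probe set, 1415945_at, had z-scores of 1.23 and 1.41 in the double mutant, 0.08 and 0.14 in the single pRb mutant, -0.11 and -0.19 in the single p107 mutant, and -1.55 and -1.02 in the control. The 4 genotypes did not overlap. Mcm5 rose in the double mutant against the control by 2.60 ± 0.20 (limma linear model, adjusted p = 0.0236).

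Mcm6, the subunit that binds Cdt1, had, in its first probe set (1416251_at), z-scores of 1.75 and 1.02 in the double mutant, -0.16 and 0.16 in the single pRb mutant, -0.12 and -0.37 in the single p107 mutant, and -1.35 and -0.93 in the control. The arrays of the single mutants overlapped, and those of the double mutant and the control stood apart on either side. The difference between double mutant and control was 2.53 ± 0.33, just short of the threshold (limma, adjusted p = 0.0514). The second probe set of Mcm6, 1438852_x_at, of a kind whose probes may also match other sequences, had another order. It read 1.24 and 0.87 in the double mutant, 0.48 and 0.63 in the single pRb mutant, -1.24 and -1.57 in the single p107 mutant, and -0.20 and -0.23 in the control. There the single p107 mutant, not the control, was lowest, and the difference between double mutant and control was 1.27 ± 0.18 (limma, adjusted p = 0.0579).

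Mcm4, whose N-terminal tail is a target of the Cdc7 kinase that activates the helicase, had, in its first probe set (1416214_at), z-scores of 1.40 and 1.16 in the double mutant, -0.25 and 0.57 in the single pRb mutant, 0.16 and -0.68 in the single p107 mutant, and -1.05 and -1.31 in the control. The difference between double mutant and control was 2.46 ± 0.43 (limma, adjusted p = 0.0799). Its second probe set, 1436708_x_at, did not separate the genotypes, because the control arrays were at 1.12 and -1.29 while the double mutant arrays were at 0.87 and 0.74.

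Mcm2, the subunit that also binds histones, had, in its first probe set (1448777_at), z-scores of 1.50 and 1.06 in the double mutant, -0.32 and 0.08 in the single pRb mutant, -0.39 and -0.07 in the single p107 mutant, and -1.84 and -0.03 in the control. The 2 control arrays were far apart, and the second lay among the single mutants. The difference of 2.21 ± 0.68 between double mutant and control did not pass (limma, adjusted p = 0.179). The second Mcm2 probe set, 1434079_s_at, showed the same sign, with 0.42 and 1.73 in the double mutant against -0.55 and -1.68 in the control.

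Mcm3, through which the ring docks onto the loader complex in yeast, had 5 probe sets, all positive in the double mutant against the control, by 1.94 to 2.43. The first, 1420029_at, which stands for the gene, was uneven, with 1.87 and 0.17 in the double mutant, -0.37 and 0.59 in the single pRb mutant, -0.22 and -0.22 in the single p107 mutant, and -0.13 and -1.69 in the control. Its difference of 1.94 ± 0.88 was the smallest of the 5 (limma, adjusted p = 0.307). The third, 1426652_at, read 1.36 and 1.36 in the double mutant, 0.41 and -0.44 in the single pRb mutant, 0.14 and -0.71 in the single p107 mutant, and -1.31 and -0.82 in the control. None of the 5 passed the threshold.

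Mcm7, a subunit of the catalytic core with Mcm4 and Mcm6, had 4 probe sets that were also all positive, by 1.51 to 2.02. In the first, 1416030_a_at, which stands for the gene, the arrays of a genotype were far apart except in the single p107 mutant, with 1.46 and 0.21 in the double mutant, 1.24 and -0.41 in the single pRb mutant, -0.46 and -0.70 in the single p107 mutant, and -1.54 and 0.20 in the control. Its difference was 1.51 ± 0.96 (limma, adjusted p = 0.437). The second, 1416031_s_at, was tighter, at 1.56 and 1.28 in the double mutant, -0.80 and -1.09 in the single pRb mutant, 0.37 and -0.11 in the single p107 mutant, and -0.96 and -0.24 in the control. In that probe set and in the third, 1438320_s_at, the single pRb mutant had the lowest mean.

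Of the loaders, Cdc6, the ATPase that joins the origin recognition complex to receive the ring, had in its only probe set (1417019_a_at) z-scores of 1.27 and 1.65 in the double mutant, -0.59 and -0.31 in the single pRb mutant, -0.25 and 0.26 in the single p107 mutant, and -0.97 and -1.07 in the control. The genotypes did not overlap, and here the single p107 mutant was above the single pRb mutant. Cdc6 rose in the double mutant against the control by 2.48 ± 0.25 (limma linear model, adjusted p = 0.0377).

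Cdt1, which escorts the ring to the origin and is destroyed once S phase begins, had 3 probe sets that disagreed. The first, 1424144_at, which stands for the gene, had 1.37 and 1.32 in the double mutant, 0.46 and -0.86 in the single pRb mutant, -0.15 and 0.06 in the single p107 mutant, and -1.10 and -1.10 in the control, a difference of 2.44 ± 0.47 between double mutant and control (limma, adjusted p = 0.0903). The second, 1424143_a_at, read 1.55 and 0.96 in the double mutant, -0.96 and -0.15 in the single pRb mutant, -0.84 and -1.31 in the single p107 mutant, and 0.54 and 0.21 in the control, so that both single mutants lay below the control. The third, 1455791_at, was lower in the double mutant than in the control, a difference of -0.84 ± 1.21 (limma, adjusted p = 0.691, not past the threshold).

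Mcm10, which helps the assembled helicase to start unwinding, gave no separation of the double mutant from the control. Its first probe set, 1433407_at, had -0.42 and 1.49 in the double mutant, -0.11 and -0.36 in the single pRb mutant, 1.09 and 0.22 in the single p107 mutant, and -0.12 and -1.79 in the control. The differences between double mutant and control were 1.49 ± 0.95 in this probe set and -0.13 ± 0.98 in the second, 1433408_a_at, neither past the threshold (limma, adjusted p = 0.438 and 0.952). Of single steps, the first probe set lay without overlap above the control in the single p107 mutant, by 1.62 ± 0.95, and the second lay below it in the single pRb mutant, with a difference of -1.40 ± 0.98, neither past the threshold (adjusted p = 0.427 and 0.618).

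Loss of both proteins therefore went with 20 of 22 positive differences between double mutant and control, with a median of 2.08, while over all tested probe sets 52.3% were positive and the median was 0.10. The 9 probe sets that stand for their genes were all positive, with a median of 2.44. With the probe sets of each gene averaged, all 9 genes were positive with a median of 1.90. Of the 22, 2 rose, those of Mcm5 and Cdc6, none fell and 20 did not pass the threshold; over all tested probe sets 1.41% rose. At an unadjusted p below 0.05, 14 of the 22 were higher, against 2440 of all 22626 tested. The double mutant arrays lay above the control arrays without overlap in 18 of 22, against 28.5% of all tested probe sets. They lay below in 1, for which no share over all tested was computed. The 2 calls were lost with limma's moderated test, which called 0 probe sets in every comparison (adjusted p = 0.127 for both), and whenever any 1 of the 8 arrays was left out, when the adjusted p ran from 0.0563 to 0.155 for Mcm5 and from 0.0783 to 0.169 for Cdc6. Without either array of the single pRb mutant Cdt1 passed instead (adjusted p = 0.04). The F test across the 4 genotypes called none of the 22, with a lowest adjusted p of 0.051 for Mcm6. It called 1.28% of all tested probe sets. Its unadjusted p was below 0.05 for 13 of the 22, against 4852 of all 22626 tested.

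**Figure D2:**
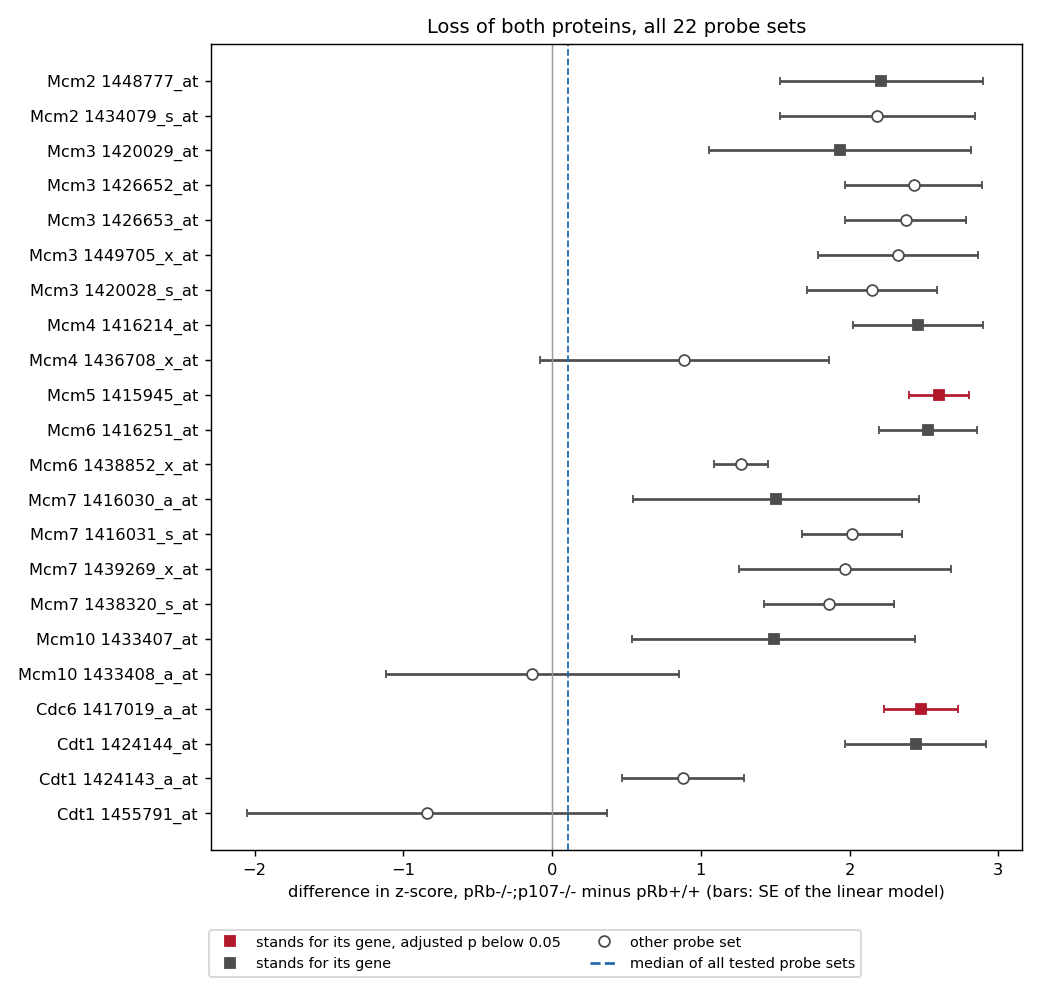
Difference in z-score between the double mutant and the control (horizontal axis, bars are the SE of the linear model) for all 22 probe sets, with the median of all tested probe sets as a dashed line at 0.10. Mcm5 and Cdc6 passed the threshold, at 2.60 and 2.48, and the second probe set of Mcm10 and the third of Cdt1 lie below 0.

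With p107 kept, loss of pRb alone changed no member past the threshold. Between the single pRb mutant and the control 16 of 22 probe sets were positive, with a median of 0.77, against 53.7% and a median of 0.12 over all tested. The model called 0 of the 22 and 0% of all tested probe sets. With an unadjusted p below 0.05, 5 of the 22 were higher, against 1865 of all 22626 tested. The most positive differences were 1.91 ± 0.41 for the fourth Mcm3 probe set (1426653_at), 1.39 ± 0.20 for Mcm5, 1.34 ± 0.43 for Mcm4 and 1.14 ± 0.33 for Mcm6 (limma, adjusted p from 0.155 to 0.341). The single pRb mutant arrays were above the control arrays in 9 of 22, against 23% of all tested. They were below in 3, for which no share over all tested was computed. Some probe sets went the other way, with -0.93 ± 0.41 for the second of Cdt1, -0.34 ± 0.34 and -0.49 ± 0.44 for the second and the third of Mcm7, and -1.40 ± 0.98 for the second of Mcm10 (limma, adjusted p from 0.449 to 0.723).

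Loss of p107 in skin with pRb changed no member past the threshold either. Between the single p107 mutant and the control 18 of 22 were positive, with a median of 0.72, but over all tested probe sets 58.8% were positive with a median of 0.35. After quantile normalization the median of the 22 was 0.34, against 0.07 over all tested. With array medians subtracted it was 0.41, against 0.04. None of the 22 passed, against 0.203% of all tested that rose. At an unadjusted p below 0.05, 3 of the 22 were higher, against 2654 of all 22626 tested. In either direction 5 of the 22 reached it, against 4393 of all tested. Above the control without overlap lay 13 of 22, against 35.2% of all tested. Below it without overlap lay 2, for which no share over all tested was computed. Mcm5 differed by 1.14 ± 0.20 and Cdc6 by 1.02 ± 0.25, while the second probe sets of Mcm6 and Cdt1 differed by -1.19 ± 0.18 and -1.45 ± 0.41 (limma, adjusted p from 0.0937 to 0.193).

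Where pRb was absent, loss of p107 gave positive differences in nearly all members. Between the double mutant and the single pRb mutant 21 of 22 were positive, with a median of 1.33, against 47.3% and a median of -0.10 over all tested. None passed, against 0.548% of all tested that rose. At an unadjusted p below 0.05, 10 of 22 were higher, against 1759 of all 22626 tested. The arrays did not overlap in 15 of 22, against 22.9% of all tested. The second and the third Mcm7 probe sets each differed by 2.36, with SEs of 0.34 and 0.44, the second Mcm3 probe set (1420028_s_at) by 2.17 ± 0.44, Cdc6 by 1.91 ± 0.25 and Mcm5 by 1.21 ± 0.20. The adjusted p of these ran from 0.0668 for Cdc6 to 0.12 for Mcm3 (limma).

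Loss of pRb in skin without p107 gave a median of 1.46 over the 22, with 20 positive, between the double mutant and the single p107 mutant. Over all tested probe sets 37.4% were positive and the median was -0.33. None of the 22 passed, against 0.177% of all tested that rose. Higher at an unadjusted p below 0.05 were 11 of the 22, against 1067 of all 22626 tested. In 18 of 22 the double mutant arrays lay above those of the single p107 mutant, against 17.2% of all tested. The most positive differences were those of the second probe set of Mcm6, 2.46 ± 0.18 (limma, adjusted p = 0.0548), and of the second probe set of Cdt1, 2.32 ± 0.41 (adjusted p = 0.185). Mcm5 differed by 1.46 ± 0.20 and Cdc6 by 1.46 ± 0.25. The 5 comparisons share arrays of the double mutant or of the control, so their values are not independent. Whether the steps differ in size was tested only as the interaction given below.

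**Figure D3:**
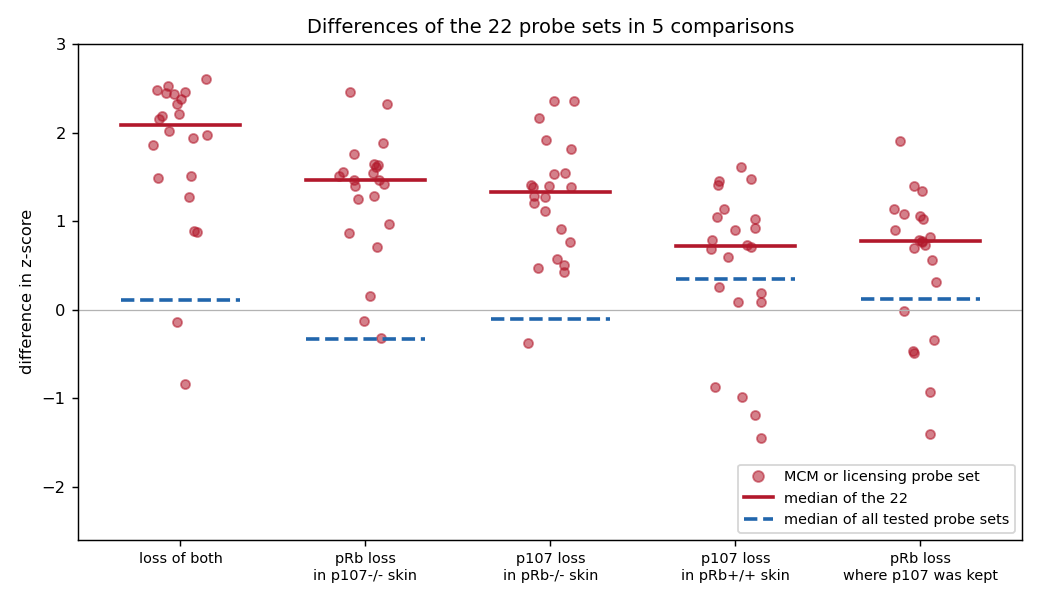
Differences in z-score (vertical axis) of the 22 probe sets in 5 comparisons, a point per probe set, with the median of the 22 as a solid line and that of all tested probe sets as a dashed line. The median of the 22 is 2.08 for loss of both proteins, 1.46 and 1.33 where the other protein was already lost, and 0.72 and 0.77 where it was kept.

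Averaged over the state of the other protein, loss of p107 gave 19 of 22 positive differences with a median of 1.07, against 0.17 over all tested. In that comparison Cdc6 rose by 1.47 ± 0.18 (adjusted p = 0.0455) and Mcm5 by 1.17 ± 0.14 (adjusted p = 0.0467, limma linear model), and 1.26% of all tested probe sets rose. With array medians subtracted Cdc6 did not pass (adjusted p = 0.0713), and the second Mcm7 probe set did (adjusted p = 0.0484). Without any 1 of the 8 arrays neither Cdc6 nor Mcm5 passed, with adjusted p from 0.101 to 0.151 and from 0.0675 to 0.195. Loss of pRb averaged over p107 gave 20 of 22 positive with a median of 1.09, against -0.08 over all tested. None of the 22 passed there, against 0.128% of all tested that rose.

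Whether loss of both proteins differed from the sum of the single losses was tested as an interaction. Such a sum depends on whether the scores came from log values, which no label states. For Mcm5 the interaction was 0.07 ± 0.29 (limma, adjusted p = 0.942), and for Cdc6 it was 0.89 ± 0.35 (adjusted p = 0.413). Larger positive values were those of the second probe set of Cdt1, 3.25 ± 0.58, the third and the second of Mcm7, 2.10 ± 0.62 and 1.63 ± 0.48, and the second of Mcm6, 1.69 ± 0.26 (adjusted p from 0.158 to 0.313). Of the 22, 19 were positive with a median of 0.60, against -0.44 over all tested. An unadjusted p below 0.05 was reached by 4 of the 22, all positive. Of all 22626 tested 2964 reached it, and 981 of those were positive. The median of the 22 was 1.13 after quantile normalization, against -0.08 over all tested, and 1.07 with array medians subtracted, against 0.02. It was 0.32 without the second single p107 mutant array. None passed, and the model called 0% of all tested probe sets.

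The double mutant had the highest mean in 19 of 22 probe sets and the control the lowest in 14 of 22. In the probe sets that stand for the 9 genes these counts were 8 and 9. The arrays of the single mutants overlapped in 13 of 22 probe sets. The single pRb mutant was above in 4 and the single p107 mutant in 5. The share over all tested probe sets was computed neither for the means nor for this pair. No order is therefore read from these counts. Over the 8 arrays Pearson's r between pairs of the 9 genes had a median of 0.70 over 36 pairs, and was 0.96 between Mcm5 and Mcm6 and 0.95 between Mcm4 and Mcm6. Without Mcm10 it ran from 0.32 to 0.96 over 28 pairs. These values describe arrays that share genotypes. Between probe sets of a gene, r ran from 0.51 to 0.91 for Mcm3 and from 0.33 to 0.88 for Mcm7, but from -0.08 to 0.33 for Cdt1, and it was 0.16 for Mcm10.

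Among 12384 other genes, 5 had z-scores over the 8 arrays most like the mean of Mcm2 to Mcm7. That mean used the probe sets that stand for these genes, the uneven ones of Mcm3 and Mcm7 included. The 5 were Casp14, a protease of cornifying keratinocytes (r = 0.989), Sod3, an extracellular superoxide dismutase (r = 0.988), Rabgap1l (r = 0.973), Fen1, the nuclease that trims Okazaki fragments (r = 0.971), and Degs1, an enzyme of ceramide synthesis (r = 0.971). They are the top of a ranking on 8 arrays that share genotypes, so a high r follows from the selection.

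Of the other parts of the replication machinery 1 gene passed for loss of both proteins, where 1.41% of all tested probe sets rose. Of 18 measured genes for origin recognition and helicase activation 13 were positive in the double mutant against the control, with a median of 1.47. Wdhd1, which tethers DNA polymerase alpha to the fork, rose by 2.50 ± 0.24 (limma, adjusted p = 0.0347), with z-scores of 0.99 and 1.36 in the double mutant against -1.53 and -1.12 in the control. Gins1, a subunit of the complex that joins the ring in the active helicase, differed by 2.43 ± 0.39 (adjusted p = 0.0687). The origin recognition genes Orc4 and Orc5 had the most negative differences, -2.43 ± 0.45 and -2.03 ± 0.69 (adjusted p = 0.0856 and 0.205), and Orc5 was at -1.12 without the second control array. None of the 18 passed in any of the 4 single-step comparisons. In the comparison of the double mutant with the single pRb mutant the most positive were Cdc45, the other partner of the ring, at 2.19 ± 0.57, and Mtbp, which takes part in loading Cdc45, at 2.16 ± 0.70 (adjusted p = 0.17 and 0.231). Without the first array of the single pRb mutant Mtbp was at 1.28. Mcm9, a relative of the ring subunits that acts in DNA repair, rose by 1.34 ± 0.13 with p107 loss averaged over pRb (adjusted p = 0.0341).

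Genes that restrain licensing or drive its turnover gave 9 of 13 positive in the double mutant against the control, with a median of 0.81. Ccna2, the cyclin of S phase, fell by 1.77 ± 0.12 (limma, adjusted p = 0.0207), with -0.76 and -0.91 in the double mutant against 0.90 and 0.96 in the control. Its other probe set had the opposite sign. Ccna2 also fell by 1.77 ± 0.12 in the double mutant against the single pRb mutant (adjusted p = 0.0301) and by 1.95 ± 0.12 in the single p107 mutant against the control (adjusted p = 0.0446). The other probe set had the same sign in the first of these comparisons and the opposite sign in the second. In these comparisons 186 and 49 of all 22626 tested probe sets fell, and 348 fell for loss of both proteins. The most positive genes for loss of both proteins were Cdk2 at 2.23 ± 0.61 and its partner cyclin gene Ccne1 at 2.21 ± 0.29 (adjusted p = 0.151 and 0.0527). In the double mutant against the single p107 mutant the most positive were Ccne2 at 2.32 ± 0.44 and Gmnn, the inhibitor of Cdt1, at 2.28 ± 0.58 (adjusted p = 0.204 and 0.29).

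Among general proliferation markers 2 of 5 passed for loss of both proteins, where 1.41% of all tested probe sets rose. Of the 5 measured, Rrm2, a subunit of ribonucleotide reductase, rose by 2.55 ± 0.26 (adjusted p = 0.0377) and Pcna, the sliding clamp of DNA polymerase, by 2.40 ± 0.24 (adjusted p = 0.0379) in the double mutant against the control (limma). Pcna had 1.42 and 1.03 in the double mutant against -1.22 and -1.12 in the control. Mki67, which marks cycling cells, had -0.09 and -0.81 in the double mutant and 0.25 and 1.22 in the control, which gives -1.18 ± 0.43 (adjusted p = 0.228, not past the threshold). Birc5, a gene of mitosis, had -0.43 and -1.56 in the double mutant and -0.83 and 0.87 in the control, which gives -1.01 ± 0.75 (adjusted p = 0.498). Without the second control array these differences were -0.70 for Mki67 and -0.17 for Birc5. The median of the 5 was 1.69, the value of Top2a, an enzyme that untangles DNA, which has a second probe set of opposite sign. With the probe sets of each gene averaged the median was 0.45. The calls of Wdhd1, Rrm2, Pcna and Mcm9 were each lost without any 1 of the 8 arrays (adjusted p from 0.0668 to 0.195). The Ccna2 call for loss of both proteins held when an array of the single pRb mutant was left out and was lost without any of the other 6 (adjusted p from 0.0433 to 0.14), and its calls in the 2 single steps were lost without any 1 of the 8 (0.0736 to 0.264 for p107 loss in pRb+/+ skin and 0.0859 to 0.172 in pRb-/- skin).

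**Figure D4:**
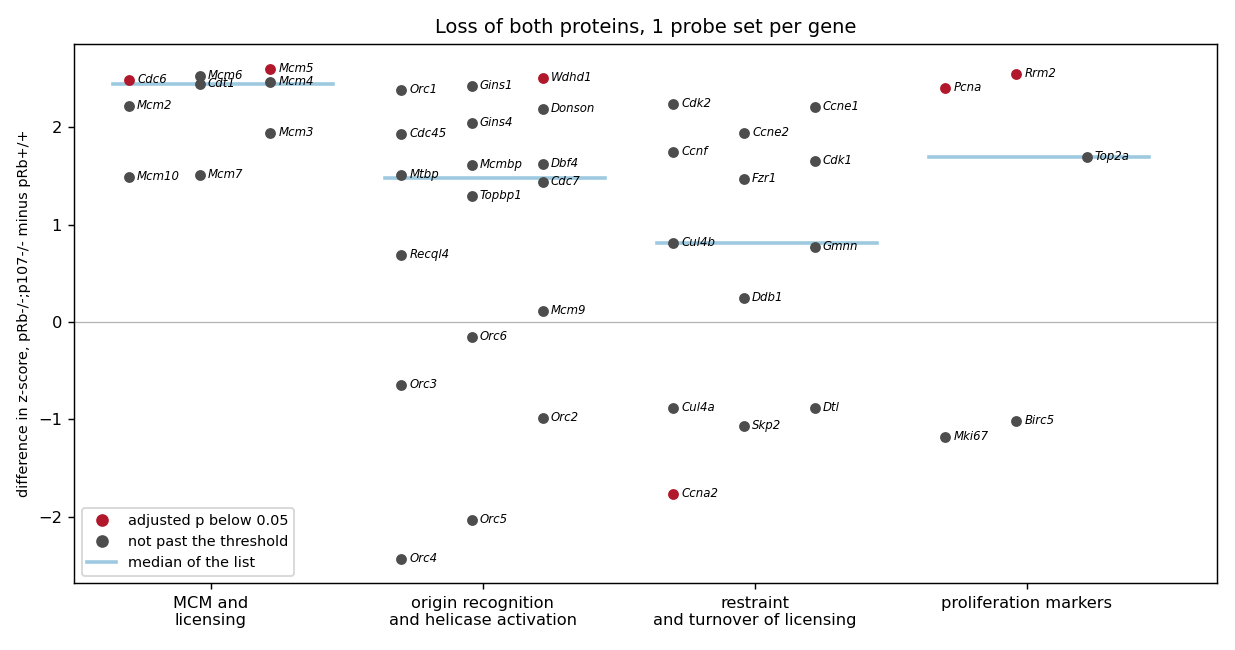
Differences in z-score between the double mutant and the control (vertical axis) for the 9 licensing genes and 3 other lists, 1 probe set per gene, with genes past the threshold in red and the median of each list as a line. The medians are 2.44, 1.47, 0.81 and 1.69 from left to right. With the probe sets of a gene averaged they are 1.90, 1.40, 0.77 and 0.45. Among the genes below 0 are Orc4, Orc5, Ccna2, Mki67 and Birc5.

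The checks that apply to all arrays were as follows. Rb1 had z-scores of -1.56 and -1.28 in the double mutant, -0.22 and 0.36 in the single pRb mutant, 0.02 and 0.40 in the single p107 mutant, and 1.21 and 1.07 in the control, and it fell by 2.56 ± 0.27 in the double mutant against the control (limma, adjusted p = 0.0391). After quantile normalization and with array medians subtracted the Rb1 call did not pass (adjusted p = 0.0838 and 0.0606), nor without any 1 of the arrays (0.0586 to 0.169). Rbl1 had -0.31 and 0.31 in the double mutant, 1.30 and 1.14 in the single pRb mutant, -1.51 and -1.22 in the single p107 mutant, and 0.08 and 0.21 in the control, and did not differ past the threshold between double mutant and control (-0.14 ± 0.25, adjusted p = 0.789). The sources used here do not place these probes relative to the deletions, so they check the labels only in part. Rb1 did not separate the single pRb mutant from the single p107 mutant. The Rbl1 probe set shown, which stands for the gene, did not separate the double mutant from the control. Rbl1 has 1 other probe set, whose values are not shown. It had the same sign for loss of both proteins and for p107 loss on either pRb background. For pRb loss where p107 was kept its sign was the opposite. The array's control probe sets differed between arrays as well. The 27 poly-A controls averaged -0.84 and -0.84 in the double mutant, 1.27 and 1.00 in the single pRb mutant, -0.48 and -0.44 in the single p107 mutant, and 0.21 and 0.12 in the control, so that they were lower on all p107-/- arrays. The 3 Gapdh controls were at -1.47 and -1.52 on the control arrays and at -0.03 to 0.84 on the other 6. The 3 beta-actin controls were at -1 and -1.08 in the double mutant, 1.21 and 1.41 in the single pRb mutant, 0.05 and -0.02 in the single p107 mutant, and 0.30 and -0.86 in the control.

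Markers of several other cell types differed between the same groups. For loss of both proteins, 318 of all 22626 tested probe sets rose and 348 fell. In the double mutant against the control all 6 suprabasal keratinocyte markers were positive, with a median of 1.73, and 1 rose. Their mean z-score was 1.15 and 1.11 in the double mutant, -0.95 and -0.43 in the single pRb mutant, 0.38 and 0.09 in the single p107 mutant, and -0.39 and -0.96 in the control. All 4 mast cell markers were positive and 3 rose, with means of 0.99 and 1.26 in the double mutant against -1 and -0.77 in the control. Of 9 hair matrix and shaft markers 8 were negative and 5 fell, with means of -0.91 and -0.90 in the double mutant against 0.89 and 0.70 in the control. Of 7 basal keratinocyte markers 5 were positive and none passed, with means of 0.63 and 0.13 in the double mutant against -0.62 and 0.09 in the control. Both measured erythroid markers were positive with none past the threshold and a median of 1.81, with means of 0.66 and 0.66 in the double mutant against -1.23 and -1.06 in the control. Fibroblast markers were negative in 5 of 6 with none past the threshold, and lymphocyte markers positive in 3 of 4, also with none. The median was 0.05 over 5 adipocyte, -0.85 over 6 skeletal muscle and -0.14 over 4 macrophage markers, and in each of these lists 1 gene fell. Other probe sets had the opposite sign for Col1a1 (1 of 1), Pdgfra (1 of 1), Trp63 (2 of 2), Cd36 (1 of 2) and Fabp4 (2 of 3). The part of these cell types and of the control probe sets in the licensing gene differences was not tested.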

How the data were processed

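RNA of whole newborn skin was extracted from 30 mg of tissue and hybridised to Affymetrix arrays, per the labels' protocols. The submitters' processing notes name RMA without a version. The authors deposited standardized scores, with mean 0 and SD 1 over the 8 arrays for all 22690 probe sets. No label records that step or says whether it was applied to log values. A score over 8 arrays cannot exceed 2.47 in size, and signal over background cannot be read. Differences between genotype means have a bound of their own, so they saturate. Where such a difference is near its bound, the scores of the other genotypes must lie near 0.

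The sample titles gave groups and replicate numbers but do not say whether duplicate arrays are separate pools, so p-values measure the spread between duplicates, which may be technical. The 64 array controls were left out. Of 22626 probe sets 20380 had 1 gene symbol in the platform annotation, 691 had several and 1555 none. Scores were fitted with 1 coefficient per genotype in limma 3.58.1 in R 4.3.3 (4 residual degrees of freedom). It was tested without moderation, because on scores moderation pools variances that standardization has tied to the differences, and adjusted by Benjamini-Hochberg (threshold 0.05). The fit was tested on simulated data. In lists 1 probe set stood for each gene, chosen by suffix (_at, _a_at, _s_at, _x_at) and lowest number. All member probe sets are described. From other lists the 2 most positive and 2 most negative genes of a comparison and those past the threshold could be named, and the 5 genes most alike by Pearson's r. Gins2, Gins3, Ticrr, Mcm8, Fbxo5 and Ccnb1 had no probe set with that single symbol. Members, lists and tests were chosen with earlier results of these data known. Alternatives were moderation, quantile normalization, subtraction of array medians, a replicate block, array controls kept, only the genotypes compared, and each array left out. The replicate numbers did not pair the samples: deviations of same-numbered arrays correlated at -0.13 to 0.11 over the 6 pairs of genotypes.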

Additional observations from a re-analysis of the deposited data

How the results depend on the processing

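The scores give no levels, each genotype has 2 arrays, and no call of a single member held when an array was left out, although the member medians kept their sign under every alternative run. Over all probe sets, limma without moderation called 666 for loss of both proteins, 687 for p107 loss averaged, 310 for p107 loss in pRb-/- skin, 95 for p107 loss in pRb+/+ skin, 58 for pRb loss in p107-/- skin, 41 for pRb loss averaged, 289 by F test, and 0 for pRb loss where p107 was kept and for the interaction, where 3026 and 2964 had an unadjusted p below 0.05. Limma's moderated test called 0 throughout and 0 members. Quantile normalization gave 370 for loss of both, 171 for p107 loss in pRb-/- skin, 0 for pRb loss averaged and 150 by F test, with 1 member for loss of both and 0 for p107 averaged. Subtracting array medians gave 52 for p107 loss in pRb+/+ skin, 137 in pRb-/- skin, 2 for pRb loss in p107-/- skin, 12 for pRb loss averaged and 97 by F test, with 1 member for loss of both. With only the genotypes compared, loss of both gave 1 and 0 members, and the steps called before gave 0 each (p107 loss on either pRb background, pRb loss without p107). Leaving out each array in turn gave 0 to 242 for loss of both with 0 to 1 member, 0 to 60 for p107 averaged with 0 members, 0 to 17 for p107 loss in pRb-/- skin, 0 to 4 for pRb loss where p107 was kept and for the F test, 0 to 1 for the interaction, and 0 to 2 for each of the others. The cause was not tested.

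With the replicate block 37 probe sets were called for loss of both, 34 for p107 averaged, 3 by F test, 2 for p107 loss in pRb-/- skin, 1 for p107 loss in pRb+/+ skin, 1 for pRb loss where p107 was kept, 0 for pRb loss averaged and in p107-/- skin, and 0 members. The replicate numbers share only a number.

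The median difference of the 22 probe sets after quantile normalization and with array medians subtracted was 0.53 and 0.59 for loss of pRb alone, 0.34 and 0.41 for p107 loss in pRb+/+ skin, 1.42 and 1.48 for p107 loss in pRb-/- skin, 1.76 and 1.74 for pRb loss in p107-/- skin, 0.91 and 0.99 for p107 averaged, and 1.13 and 1.07 for the interaction. Leaving out an array it ran from 0.38 to 0.80 for loss of pRb alone. It ran from 1.94 to 2.29 for loss of both, 0.50 to 0.85 for p107 loss in pRb+/+ skin, 1.20 to 1.50 in pRb-/- skin, 1.28 to 1.65 for pRb loss in p107-/- skin, 0.91 to 1.14 for pRb averaged, 0.97 to 1.20 for p107 averaged and 0.32 to 0.88 for the interaction. Signs of single genes changed as follows, none of them called. For p107 loss in pRb+/+ skin Mcm7 was -0.34 after quantile normalization and -0.23 with medians subtracted, and for pRb loss in p107-/- skin Mcm10 was 0.041 and 0.15. Leaving out an array, the first Mcm7 probe set ran from -0.78 to 0.96 for p107 loss in pRb+/+ skin, -0.40 to 1.25 in pRb-/- skin and -0.18 to 0.69 averaged, and the second from -0.70 to 0.018 for pRb loss where p107 was kept. The first Mcm10 probe set ran from -0.11 to 1.56 for loss of pRb alone, -0.19 to 1.72 for p107 loss in pRb-/- skin and -1.08 to 0.83 for pRb loss in p107-/- skin, and the second from -0.63 to 0.36 for loss of both. Mcm2 ran from -0.089 to 1.72 for loss of pRb alone and from -0.20 to 1.61 for p107 loss in pRb+/+ skin, and Mcm3 from -0.090 to 1.47 for the second of these. The second Mcm4 probe set ran from -0.32 to 2.09 and Rbl1 from -0.45 to 0.17 for loss of both, and the Mcm5 interaction from -0.20 to 0.34.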
